A study of Drosophila melanogaster with 2 samples.

Results

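The enzymes of oxidative phosphorylation were examined as possible binding targets of CG10654, a fly gene whose product the reference annotation calls only an uncharacterized protein. The genes were chosen by name. Every gene on the nuclear chromosome arms whose Ensembl symbol starts with ND-, with COX and a digit, with ATPsyn, with UQCR or with Sdh was taken, which gave 88 genes of 18164 annotated ones. All 88 are protein-coding. By these prefixes 40 belong to complex I, 8 to complex II, 9 to complex III, 16 to complex IV and 15 to complex V. Their names carry the label, and 1 of them, Sdhaf3, encodes an assembly factor and not a subunit.

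Oxidative phosphorylation takes place in the inner membrane of the mitochondrion. Complex I (NADH dehydrogenase) and complex II (succinate dehydrogenase) pass electrons to ubiquinone, complex III (ubiquinol-cytochrome c reductase) passes them to cytochrome c, and complex IV (cytochrome c oxidase) passes them to oxygen. Complex V (ATP synthase) uses the proton gradient built along this chain to make ATP. Most subunits are encoded in the nucleus, some in the mitochondrial genome, so their supply depends on nuclear promoters. Flies also carry extra copies of many of these genes, usually named by adding an L, and such copies are often expressed mainly in the testis.

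The data were ChIP-seq peak lists from whole embryos of a transgenic line that carries CG10654 with GFP fused to its C-terminus, precipitated with an antibody against GFP. Embryos of both sexes were collected at 0 to 24 h, which mixes every tissue and stage of embryogenesis in each library. The chromatin was sheared to 200 to 800 bp. There was 1 group, with 2 biological replicates and no second condition, and whether the line keeps untagged CG10654 was not stated. The authors deposited candidate lists of 23253 peaks for replicate 1, 30000 for replicate 2 and 27219 for the pooled reads. They also deposited 4117 peaks that passed the irreproducible discovery rate (IDR), a filter on how the replicates rank their candidates, and these are called IDR peaks here. The number of reads behind the lists is unknown.

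For each gene the promoter peak was the strongest one whose summit lay no more than 500 bp from a transcription start site (TSS) of the Ensembl annotation. Where 1 summit was that close to several genes, it was assigned to all of them. The signal is the authors' enrichment value for a peak. It has no absolute scale and no replicate error of its own, so the replicates' values are given beside the pooled value. No p-value is given, because genes are not replicates and there is no condition to compare. Shares are set beside those of all protein-coding genes, with 95% Wilson intervals that cover counting error over genes only.

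Summit sequences of the strongest promoter peaks are shown first, to give the kind of DNA the peaks lie on. These are 3 of the 7 strongest genes. The rule was the highest signal among genes whose window of 101 bases around the summit holds no annotated UTR or coding sequence, with 1 chromosome arm left out. The sequences are read in the direction of the gene, from Release 6 (dm6), and the capitals mark the summit base and 5 bases on either side. ND-ASHI lies at chrX:6679321-6679421 on the minus strand, ND-51 at chr2L:6062845-6062945 on the minus strand, and COX5B at chr2L:6557504-6557604 on the plus strand.
ND-ASHI: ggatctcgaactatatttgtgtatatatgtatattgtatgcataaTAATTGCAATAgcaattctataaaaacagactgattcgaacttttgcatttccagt
ND-51: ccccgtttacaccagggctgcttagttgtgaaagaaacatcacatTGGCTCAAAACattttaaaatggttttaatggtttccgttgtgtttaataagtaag
COX5B: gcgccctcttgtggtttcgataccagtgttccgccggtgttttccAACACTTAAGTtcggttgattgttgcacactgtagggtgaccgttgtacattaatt
G and C made up 28.7% of the window at ND-ASHI, 36.6% at ND-51 and 47.5% at COX5B. None of these 3 windows held any of the promoter motifs searched below.

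IDR promoter peaks lay at 18 of the 88 genes (20.5%, interval 13.3 to 30%). Among all protein-coding genes the share was 19.8% (2763 of 13945), and among all annotated genes it was 16.3% (2969 of 18164). The count for the respiratory genes is therefore near the background and is not a result about them as a group. Signals at the 18 genes ran from 107.7 to 358.1, with a median of 176.3. The 2763 protein-coding genes with an IDR promoter peak had a median of 182.4 and a highest value of 2484.4. The best placed of the respiratory genes, ND-MWFE, ranked 493 of the 27219 pooled candidates. With weaker candidates included, 62 of the 88 genes (70.5%) had a pooled promoter candidate of any strength, against 50.5% of protein-coding genes. Of these 62, 44 had only candidates weaker than the IDR peaks. The pooled list holds background as well as peaks, and only 21 of these 44 had a summit within 100 bp in both replicates. The share of protein-coding genes with a candidate was not split by promoter kind, so the difference is not read as enrichment.

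**Figure D1:**
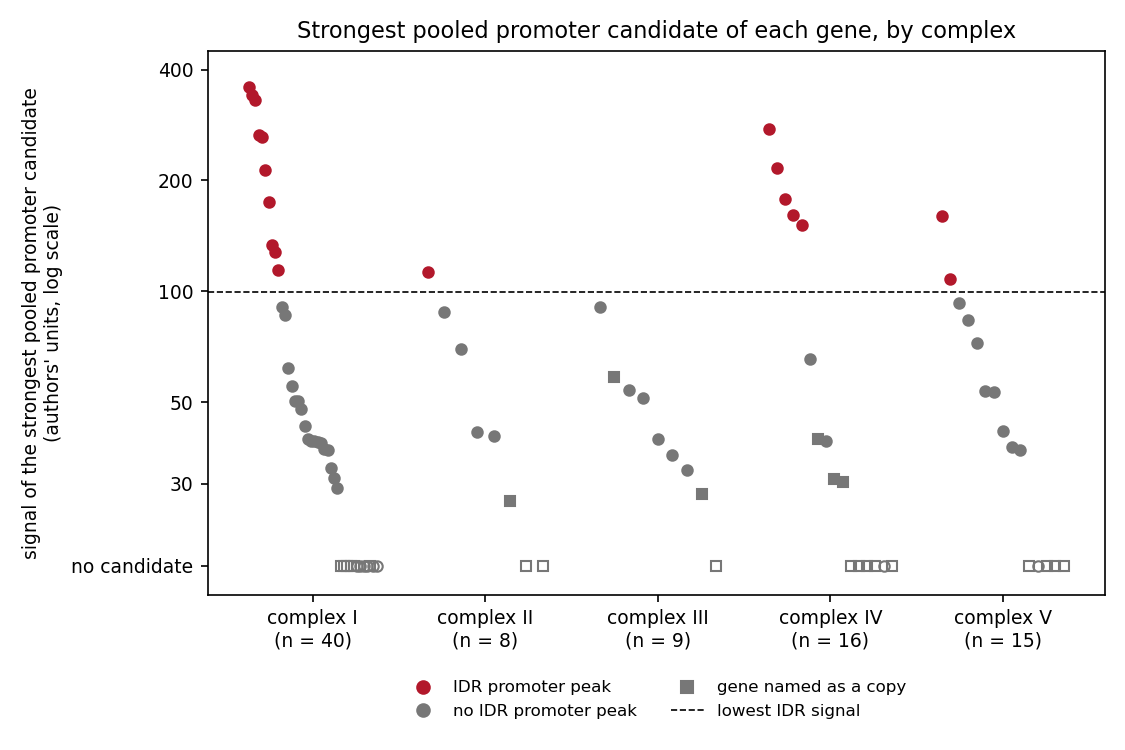
Signal of the strongest pooled promoter candidate of each of the 88 genes, in the authors' units on a log scale, by complex, with the number of genes under each name. Red points are IDR peaks, grey points weaker candidates, squares genes named as copies, and open symbols genes with no pooled candidate; the dashed line is the lowest IDR signal, 99.3. Complex III has no point above the line, and no square lies above it.

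Complex I, the entry point for electrons from NADH, held 10 of the 18 genes. Its 40 genes include 6 named as copies of others, and 10 of the remaining 34 (29.4%, interval 16.8 to 46.2%) had an IDR promoter peak. Of the 7 core subunits, which carry the flavin and the iron-sulfur clusters or help to form the ubiquinone site, 3 had one. Of the 27 accessory subunits 7 had one (25.9%). The intervals for the 34 genes, for the core (15.8 to 75%) and for the accessory subunits (13.2 to 44.7%) all take in the 19.8% of all protein-coding genes. With a divergent neighbour (defined below), 8 of 20 genes not named as copies had an IDR promoter peak (40%, against 39.9% of such protein-coding genes). Without such a neighbour 2 of 14 had a peak (14.3%, against 11.3%). Complex I thus lay near the background.

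Among core subunits, ND-51 binds NADH and the flavin. Its peak, at 2L from 6062802 to 6062985, had a signal of 221.7 in replicate 1, 105.3 in replicate 2 and 329.7 in the pooled list. ND-24, another iron-sulfur subunit of the arm that oxidises NADH, gave 159.6, 105.4 and 263.0 (X, 17631988 to 17632377). ND-23, which carries iron-sulfur clusters nearer to the membrane, gave 87.8, 40.5 and 127.5 (3R, 15837062 to 15837451). Replicate 1 was the higher in each case, but its list also spans a wider range of signal, up to 1720.0 against 780.7, and the lists differ in length, so replicates are compared by position in the list. ND-51 lay in the top 2.5% of replicate 1 and the top 2.19% of replicate 2, ND-24 in the top 4.48% and 2.18%, and ND-23 in the top 12.1% and 11.9%. As a percent of list length all 3 were nearer the top in replicate 2, ND-24 by the most. By plain rank only ND-24 was (1042 in replicate 1 and 655 in replicate 2). ND-51 (582 and 656) and ND-23 (2813 and 3568) ranked nearer the top in replicate 1, so their direction depends on list length.

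The other 4 core genes had no IDR promoter peak. ND-30 had a pooled candidate of 86.2, nearer to the TSS of its neighbour CG15812. ND-49, on chromosome 4, had 39 and ND-20 had 38.7, while ND-75, which encodes the largest core subunit, had no promoter candidate in the pooled or replicate lists. Core genes thus span the whole range from no candidate to rank 573 of the pooled list.

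The 2 strongest peaks of all 88 genes, and the fifth, lay at accessory subunits of complex I. ND-MWFE, a small subunit of the membrane arm, gave 266.0 in replicate 1, 95.2 in replicate 2 and 358.1 pooled (2R, 13158376 to 13158573). Its summit lay inside an intron of the divergent gene TppII, which encodes a peptidase. ND-ASHI, also of the membrane arm, gave 243.7, 94.9 and 341.6 (X, 6679259 to 6679475), with its summit in an intron of Fum1. ND-42, a subunit of the matrix side, gave 168.7, 95.7 and 265.4 (3R, 22027316 to 22027705). These peaks lay between the top 1.64% and the top 4.1% of replicate 1 and between the top 2.67% and the top 2.73% of replicate 2.

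Weaker IDR peaks lay at the other 4 accessory genes. ND-SGDH had a pooled signal of 213.6 (3L, 12138503 to 12138892) and ND-MNLL one of 174.3 (X, 7893713 to 7894102), both membrane arm subunits. ND-B22 had 133.8 (2L, 13370853 to 13371242). The matrix arm subunit gene ND-13B had 113.9 (3L, 10693934 to 10694323), the lowest of complex I, with 60.7 in replicate 1 and 47.1 in replicate 2. ND-13B and ND-B22 were the only 2 of the 18 genes whose peak fell within 500 bp of no other gene's TSS.

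The accessory genes just under the IDR limit were led by ND-B17, at 90.8. Besides ND-75, the genes ND-ACP, which encodes the mitochondrial acyl carrier protein, ND-B12 and ND-B14 had no promoter candidate in any list. They are the only 4 genes, of 64 not named as copies, of which this holds, and none has a divergent neighbour.

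Complex II is the enzyme shared by the respiratory chain and the tricarboxylic acid cycle. SdhC, a membrane anchor subunit, was the only 1 of its 8 genes with an IDR promoter peak (3R, 11209923 to 11210312), at 85.8 in replicate 1, 27.6 in replicate 2 and 113.0 pooled. That summit lay 269 bp upstream of SdhC and nearer to the TSS of Tctp, and without replicate 1 it did not reach the 4117 strongest candidates. SdhB, the iron-sulfur subunit, came next with a pooled candidate of 87.9, almost on its TSS (3 bp upstream), at 53.6 in replicate 1 and 34.8 in replicate 2.
The window at the SdhC summit is shown because it was the only 1 of the 18 that held the DNA replication-related element (DRE), here in capitals, at chr3R:11210068-11210168 on the minus strand.
SdhC: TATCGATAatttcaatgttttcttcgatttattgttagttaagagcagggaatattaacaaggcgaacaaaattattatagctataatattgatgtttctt
Lower pooled candidates lay at the assembly factor gene Sdhaf3 (69.5), at SdhA, the flavoprotein (41.5), and at SdhD, the other anchor (40.4). Of the copies, SdhBL had 27, the weakest value of all 88 genes, and SdhAL and SdhCL had no candidate in any list.

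Complex III genes had no IDR promoter peak: 0 of 9, or 0 of the 6 not named as copies (interval 0 to 39%). This interval takes in the 19.8% of all protein-coding genes. Of the 6 genes 4 have no divergent neighbour, the kind of promoter for which the background was 11.3%. So few genes cannot set the complex apart from the background. All 6 had pooled candidates. The highest lay at UQCR-14, a small subunit, with 53.6 in replicate 1, 35.6 in replicate 2 and 90.4 pooled. UQCR-Q followed with 53.8 and UQCR-C1, which encodes a large core protein on the matrix side, with 51.3. UQCR-C2, the other core protein, had 39.7, UQCR-11 had 36 and UQCR-6.4 had 32.8. The copy UQCR-6.4L, at 58.4, lay above the gene it is named after, UQCR-11L had 28.1, and UQCR-14L had no candidate. The UQCR-6.4L summit lay 449 bp upstream of its TSS, in an intron of Mipp1. That of UQCR-11L lay 471 bp downstream of its TSS, in an intron of Acsl.

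The name rule leaves out 3 further subunits of this complex, and 1 of them changes the count. The subunit gene ox had an IDR promoter peak of 129.1 (2R, 12757390 to 12757779). The cytochrome gene Cyt-c1 had a candidate of 56.3, and the Rieske protein gene RFeSP had no pooled candidate. With them, 1 of 9 complex III genes (11.1%, interval 1.99 to 43.5%) had an IDR promoter peak, so the absence holds for the genes named UQCR only.

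Complex IV reduces oxygen to water at the end of the chain. Of its 16 genes 8 are named as copies, and 5 of the other 8 (62.5%, interval 30.6 to 86.3%) had an IDR promoter peak. This was the highest share of the 5 complexes. Its interval lies above the 19.8% of all protein-coding genes, but only with the copies left out. The intervals for this complex make no allowance for its being the highest of 5. Over all 16 genes the share was 31.2%, with an interval of 14.2 to 55.6% that takes in 19.8%. COX6AL, COX6AL2 and COX6CL were placed among the copies after the data had been seen. The protein-coding background keeps its own copies. The subunits involved are all small nuclear-encoded ones that surround the catalytic core. COX5A was the strongest, at 179.5 in replicate 1, 92.8 in replicate 2 and 276.5 pooled (3R, 11819451 to 11819603). COX5B gave 137.3, 77.8 and 215.5 (2L, 6557456 to 6557589). COX6B, which sits on the side facing cytochrome c, gave 127.3, 49.7 and 178.3 (X, 19744189 to 19744578).

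COX8 and COX7B completed the set. COX8 gave 122.2 in replicate 1, 34.6 in replicate 2 and 160.8 pooled (3L, 21539326 to 21539715), and COX7B gave 96.1, 48.5 and 151.3 (3L, 17425178 to 17425567). COX8 was less well placed in replicate 2, in the top 14.8%, than in replicate 1, in the top 7.35%. The remaining genes were COX4 (65.4 pooled, 31.3 in each replicate), COX7C (39.1) and COX7A, which had no pooled candidate. Of the 8 genes 6 have a divergent neighbour, a gene that starts close by on the opposite strand, and all 5 with an IDR promoter peak are among them. That is 5 of 6 (83.3%, interval 43.6 to 97%), against 39.9% of protein-coding genes with a divergent neighbour. The 2 without such a neighbour had none. Counting each summit only for the gene of the nearest TSS, 3 of the 5 were left.

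Complex V had IDR promoter peaks at 2 of 15 genes, or 2 of the 11 not named as copies (18.2%, interval 5.14 to 47.7%). ATPsynE, which encodes a subunit of the membrane part, gave 124.5 in replicate 1, 33 in replicate 2 and 160.4 pooled (3R, 14326780 to 14327169). ATPsynCF6, a subunit of the stalk that holds the head in place, gave 75.1, 38.2 and 107.7 (3R, 23356057 to 23356446), the lowest signal of the 18 genes. ATPsynE lay in the top 7.13% of replicate 1 and the top 15.7% of replicate 2, so replicate 1 placed it higher.

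None of the 3 ATPsyn genes of the catalytic head and its central stalk had an IDR promoter peak. ATPsynB, of the peripheral stalk, was the highest of all 88 genes without one, at 50.7 in replicate 1, 40.6 in replicate 2 and 92.9 pooled. Its summit was close to the gene's start, at 23 bp upstream. The IDR limit of 99.3 thus fell between ATPsynB and ATPsynCF6. ATPsynO, also of the peripheral stalk, followed at 83.6. In the head and central stalk, ATPsyngamma had 72.2, the catalytic subunit gene ATPsynbeta, on chromosome 4, had 53.3, and ATPsyndelta had 41.8. The name rule leaves out blw, which encodes the other subunit of the catalytic ring, and sun. blw had an IDR promoter peak of 338.8 (2R, 22798848 to 22799088), above every ATPsyn gene, and sun had a candidate of 38.9.

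**Figure D2:**
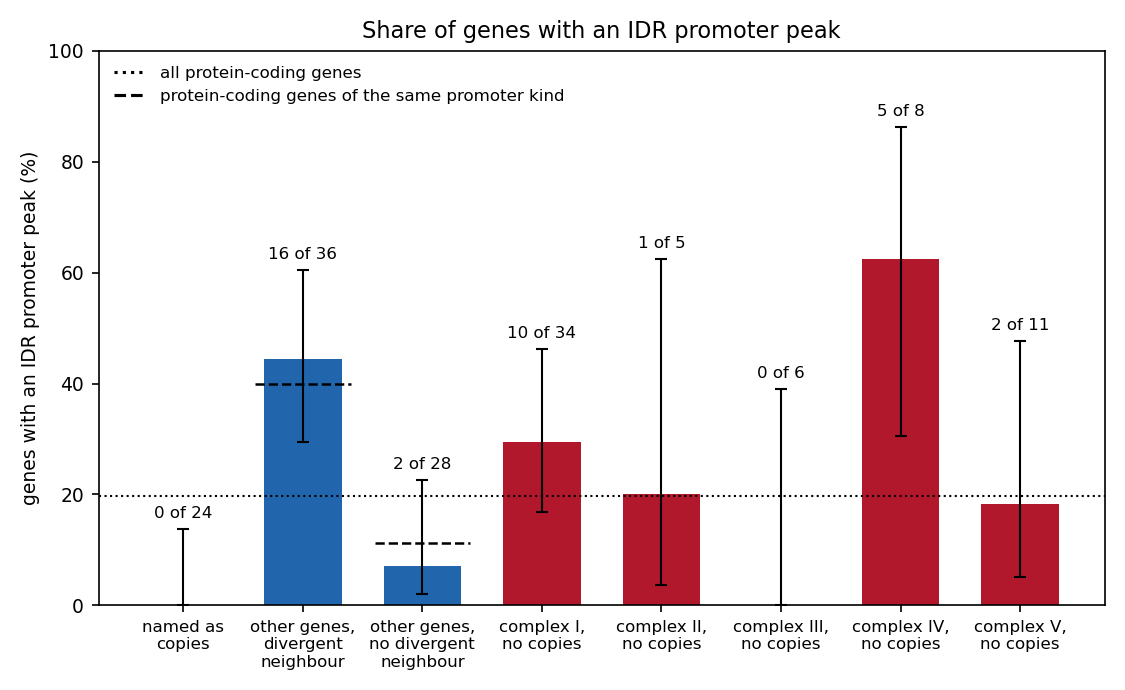
Share of genes with an IDR promoter peak, in percent; bars are shares, error bars 95% Wilson intervals over genes, and the numbers above are genes with a peak of all genes. The dotted line is the share of all protein-coding genes, 19.8%, and the dashed lines those with and without a divergent neighbour, 39.9% and 11.3%. The bars for respiratory genes with and without a divergent neighbour have intervals that take in the dashed lines. Of the bars for complexes, drawn without copies, only that of complex IV has an interval wholly above the dotted line.

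IDR promoter peaks lay mostly at genes that share their promoter region with a neighbour. A gene was said to have a divergent neighbour when the TSS of a gene on the opposite strand lay up to 500 bp upstream of its own and pointed away. Of the 64 genes not named as copies, 36 have a divergent neighbour and 16 of these had an IDR promoter peak (44.4%, interval 29.5 to 60.4%). Of the 28 without such a neighbour 2 had one (7.14%, interval 1.98 to 22.6%). The same split was present among all protein-coding genes, with 39.9% of 4134 genes with a divergent neighbour and 11.3% of 9811 genes without. Within each kind of promoter the respiratory genes therefore lay near the background.

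Among the shared peaks, 2 also belonged to genes of mitochondrial metabolism. ND-ASHI shared its peak with Fum1, which encodes the fumarase of the tricarboxylic acid cycle, and its summit lay 253 bp upstream of ND-ASHI and 269 bp upstream of a TSS of Fum1. ND-42 shared its peak with Cchl, the cytochrome c heme lyase gene, which was the nearer of the pair. Other partners encode proteins outside the respiratory chain. COX8 shared with VhaM9.7-b, a gene of the vacuolar proton pump. ATPsynCF6 shared with Sec13, a gene of the vesicle coat, COX7B with the exocyst gene Sec3, and ND-23 with spn-E, a germline RNA helicase gene. The data cannot tell which gene of a pair a shared peak acts on, if any.

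In 7 of the 18 genes the summit was nearer to the TSS of another gene. They were ND-42, ND-51, ND-MWFE, SdhC, COX5B, COX6B and ATPsynCF6, so the own TSS was the nearest in 11 genes (61.1%). Among protein-coding genes with an IDR promoter peak the own TSS was the nearest in 68.9%. In all, 16 of the 18 genes (88.9%) had a peak that also lay within 500 bp of the TSS of another gene. Counted by gene in the same way, this held for 64.5% of the 2763 protein-coding genes with an IDR promoter peak.

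**Figure D3:**
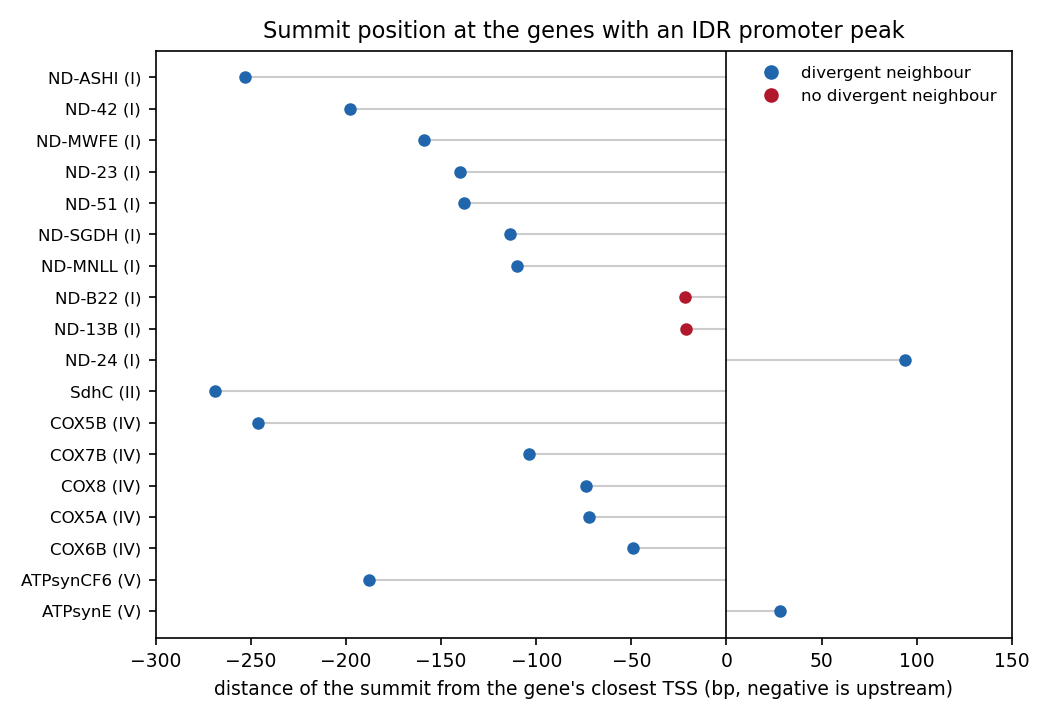
Distance of the promoter peak summit from the closest TSS of its own gene, in bp, for the 18 genes with an IDR promoter peak, with the complex in brackets; negative values are upstream. Blue points are genes with a divergent neighbour and red points those without. Summits lie upstream in 16 genes, and only ND-24 and ATPsynE lie downstream.

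Summits lay upstream of the gene's closest TSS in 16 of 18 cases (88.9%, against 91.2% over protein-coding genes). At ND-B22 and COX5A such a summit still lay inside the gene, because a longer transcript starts further upstream. The median distance was 112.0 bp upstream, against 136.0 bp, with a range from 269 bp upstream at SdhC to 94 bp downstream at ND-24. Both genes without a neighbouring TSS had summits close to a TSS of their own. The summit lay 21 bp upstream at ND-13B and 22 bp upstream of the second TSS at ND-B22. The summit at COX5A lay 72 bp upstream of its second TSS and inside an intron of the longer transcript. By annotation 12 of the 18 summits were intergenic, 4 intronic and 2, at ND-B22 and ATPsynE, in a 5' UTR.

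Genes named as copies had no IDR promoter peak. There were 24 of them, 20 named after another gene of the set and 4 after levy, cype or sun, which the rule does not find and which were added after the data had been seen. The 0 of 24 allows a share of up to 13.8% (upper bound of the interval). For comparison, 18 of the 64 other genes (28.1%, interval 18.6 to 40.1%) had one. Of the copies 21 have no divergent neighbour, the kind of promoter for which the background was 11.3%. Only 6 had a pooled candidate and 18 had no promoter candidate in any list.

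The original genes of 9 copies had IDR promoter peaks while the copies had none. ND-51 had a pooled signal of 329.7, and neither ND-51L1 nor ND-51L2 had a candidate. The same held for ND-24 (263.0) and ND-24L, COX5B (215.5) and COX5BL, SdhC and SdhCL, and ATPsynCF6 and ATPsynCF6L. COX7AL (39.7) and COX7AL2 (31) had weak pooled candidates where COX7A had none in the pooled list, though COX7A had one in a replicate list. The COX7AL summit lay 417 bp downstream of its TSS and nearer to the TSS of DppIII. The COX7AL2 candidate had no summit within 100 bp in either replicate. Whether the copies are transcribed in embryos was not measured here.

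**Figure D4:**
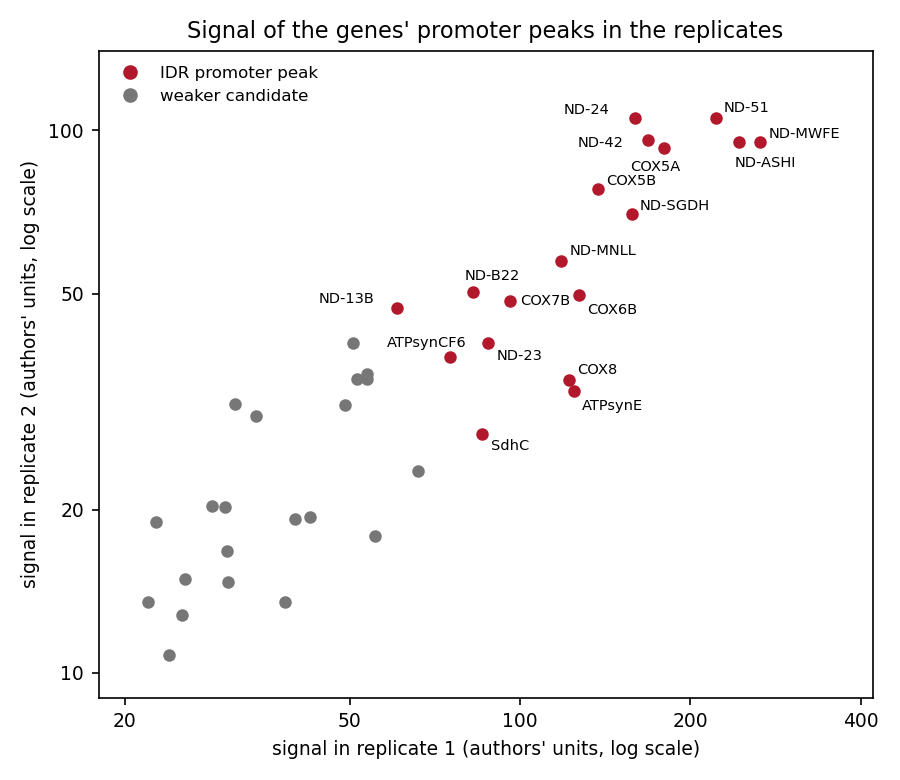
Signal in replicate 1 against replicate 2, in the authors' units on log scales, for each gene whose strongest pooled promoter peak has a summit within 100 bp in both replicates. Red points are the 18 genes with an IDR promoter peak, each named, and grey points are weaker candidates. COX8, ATPsynE and SdhC lie low in replicate 2 for their signal in replicate 1.

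Each replicate had a summit no more than 100 bp from that of each of the 18 peaks, as was the case for 95.6% of the 2146 IDR promoter peaks of other genes. The replicates are part of the IDR filter, so this is a description. Signals of the 18 genes had a Spearman's rho of 0.777 between replicates, against 0.793 over 2051 peaks of other genes. Both are correlations across peaks of the same 2 libraries. As a position in the list, the 18 peaks lay between the top 1.64% and the top 19.6% of replicate 1 and between the top 2.18% and the top 20.2% of replicate 2. By this percent 7 of the 18 were nearer the top in replicate 1 and 11 in replicate 2. That is 38.9% nearer in replicate 1, against 37.7% of other IDR promoter peaks. The measure depends on list length, 23253 candidates in replicate 1 and 30000 in replicate 2. By plain rank most of the 18 were nearer the top in replicate 1, so no direction is read from it. Among weaker candidates 21 of 44 were matched in both replicates.

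Few of the summit windows held a known promoter motif. The motifs were searched on both strands, in the promoters from 250 bp before to 50 bp after the first TSS and in the summit windows. The core of motif 1, GGTCACAC, which is the site of the core promoter factor M1BP, stood in 16 of 88 promoters (18.2%) and in 7.71% of all protein-coding promoters. It was in 4 of the 18 promoters with an IDR peak and in 0 of the 18 summit windows, against 1.82% of the windows of other IDR promoter peaks. TATCGATA, the core of the DRE, was in 9 of 88 promoters (10.2%, against 9.37%) and in 1 of 18 summit windows, that of SdhC, against 3.36%.

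The other motifs stood in a smaller or similar share of promoters. GAGAG, the core of the GAGA factor site, was in 20 of 88 promoters (22.7%, against 29.8%) and in 1 summit window, that of COX6B, against 7.74%. TGCGCA, the core of the site of NRF-1, a regulator of respiratory genes in mammals, was in 6 promoters (6.82%, against 6.98%) and in 0 summit windows. CACGTG, the E-box, was in 4 promoters (4.55%, against 4.24%) and in 0 summit windows. CCGGAAG, an Ets factor core, and the nuclear respiratory gene element were in 0 of the 88 promoters, against 1.1% and 0.158% of all. None of the 7 motifs contains another. A match is a string of letters and does not show that a factor binds there.

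The sequence under the summits was rich in A and T. G and C made up a median of 29.7% of the 18 windows, from 16.8% at ND-23 to 56.4%, against a median of 32.7% at other IDR promoter peaks. The 8-base word that most exceeded its count 300 bp away at other genes' IDR promoter peaks was TTAAAAAA. It stood in 7.55% of those 2146 windows, against 2.47% of windows 300 bp away, and in 1 of the 18 windows here, that of ATPsynE.

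Neighbouring pathways are given by lists written from general knowledge. Of 13 further genes of oxidative phosphorylation outside the name rule, 6 had an IDR promoter peak (46.2%). They were CIA30, which encodes a complex I assembly factor (876.2, above all of the 88 genes), the testis cytochrome c gene Cyt-c-d (457.1), blw, ox, and the complex IV genes levy (204.9) and cype (138.5). With levy and cype, 7 of 10 complex IV genes not named as copies had an IDR promoter peak (interval 39.7 to 89.2%). The summit at Cyt-c-d lay 368 bp downstream of its TSS. The main cytochrome c gene Cyt-c-p had a candidate of 52.6.

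Enzymes of the tricarboxylic acid cycle had IDR promoter peaks at 6 of 12 genes. The strongest were Idh3g, of isocitrate dehydrogenase (455.7), and Fum1 (341.6), whose peak is that of ND-ASHI, followed by mAcon1 (193.3) and Idh3b (154.2). Among 12 genes for nuclear regulators and for copying and transcribing the mitochondrial genome, 3 had one. They were ERR, the estrogen-related receptor (286.7), mtSSB, which binds single-stranded mitochondrial DNA (283.7), and PolrMT, the mitochondrial RNA polymerase (129.3). TFAM, PolG1 and srl, the fly relative of PGC-1, had no pooled candidate, and ewg, the fly relative of NRF-1, had 59.1. Mitochondrial ribosomal protein genes had an IDR promoter peak in 29 of 73 cases (39.7%). For comparison, the share of all protein-coding genes was 19.8%, or 39.9% with and 11.3% without a divergent neighbour. The genes of these lists were not split by divergent neighbour, so their shares are not read as enrichment. Differences between these lists and the respiratory genes were not tested.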

How the data were processed

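The authors deposited narrowPeak lists on dm6: candidates (peaks and background) per replicate and for the pooled reads, each against a control library, and the IDR list derived from them, per the file descriptions. The signal in the deposited lists (field 7) is the authors' enrichment; the position of the summit is start plus field 10. The peak caller, its version and the depth are, in the sources used here, not given, and the control library was not analysed here. The dm3 lists were not used.

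Genes, TSSs and features came from Ensembl release 115 (transposable elements left out, arms 2L, 2R, 3L, 3R, 4 and X) and sequence from the NCBI Release 6 genome, the assembly of dm6; all peaks lay within its arm lengths. Positions are 1-based. Peaks were matched between lists at 100 bp. The script was tested on simulated peaks. Python 3.11.15, NumPy 2.4.6, SciPy 1.17.1 and matplotlib 3.10.9 were used.

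The genes, lists, motifs and alternatives were chosen with earlier results of these data known. The genes named are those with an IDR promoter peak, the 5 strongest without one, complexes II and III in full, and the genes with no candidate, by count or name. Other genes, such as the remaining core subunits, COX4 or ATPsynbeta, were named after their values were seen to complete a complex. Alternatives were other windows around the TSS, the nearest or first TSS only, the stronger IDR peaks, other matching distances and single replicates. The leading word was chosen on peaks of other genes. SdhC's sequence was added for its motif.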

Additional observations from a re-analysis of the deposited data

How the results depend on the processing

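Of 89 alternative values, 76 stayed within 1.5 times the main value. Counting a summit only for the gene of the nearest TSS left 11 of the 18 genes with an IDR promoter peak, 0 in complex II, 3 in complex IV and 1 in complex V. Among the 2058 strongest IDR peaks 10 genes were left (11.4%, against 11.4% of protein-coding genes), with 0 in complex II, 3 in complex IV and 0 in complex V. A 250 bp window left 0 in complex II, and 4 complex III genes with a pooled candidate. Taking the 4117 strongest candidates of a single replicate gave 16 genes without replicate 1 and 18 without replicate 2, and 0 to 1 in complex II. These shares were 18.2% (against 18.7% of protein-coding genes) without replicate 1 and 20.5% (against 20.1%) without replicate 2. Without replicate 1, ATPsynE, COX8 and SdhC were lost and ATPsynB was gained; without replicate 2, ND-13B was lost and ND-B17 was gained. The leading word of windows of 25 bp on either side was in 0 summit windows and that of 100 bp in 3. Leaving out the copies of levy, cype and sun, an alternative chosen after seeing the data, changed no count of genes with an IDR promoter peak. No paired analysis was possible because there is a single group. Depth is unknown, so a missing peak may be one not detectable at this depth.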
